A study of Mus musculus with 2 samples.

Results

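The genes described here are 35 mouse genes of the major histocompatibility complex (MHC) and of antigen presentation, out of 43346 Ensembl genes measured. They were chosen by symbol for their known roles, each symbol was matched to its gene identifier, and all 35 were found. They comprise 2 classical class I heavy chains (H2-K1 and H2-D1) and 16 nonclassical class I heavy chains (H2-Q1, H2-Q2, H2-Q4, H2-Q6, H2-Q7, H2-Q10, H2-T3, H2-T10, H2-T22, H2-T23, H2-T24, H2-M2, H2-M3, H2-M5, Cd1d1 and Mr1). The class I light chain B2m stands alone, 8 genes belong to peptide loading (Tap1, Tap2, Tapbp, Tapbpl, Psmb8, Psmb9, Psmb10 and Erap1), and 6 belong to class II (H2-Aa, H2-Ab1, H2-Eb1, H2-DMa, H2-DMb1 and Cd74). The remaining genes are Nlrc5 and Ciita, which switch on class I and class II genes. On GRCm38, the assembly called mm10 in the deposited text file, 26 of them lie on chromosome 17 and 9 elsewhere.

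Total RNA longer than 200 nt was sequenced from the intestine of 2 newborn mice of strain B6NCrl, age 0 days, which came from 1 litter and carried no treatment or allele named in the labels. Sex was not collected, each library was made from 10 ng of RNA with spike-in transcripts, and the labels do not name the gut segments taken. Pup 1 and pup 2 are biological replicates of 1 group, so the comparisons run between genes within a pup and between the pups. The libraries held 44568098 and 34797495 expected counts (reads per gene, fractional where a read matched several genes and was divided), and the 35 genes took 0.422% and 0.406% of them. Epithelial markers were abundant, all 8 of 8 being detected with a median of 637 ± 35.8 TPM (SD, n = 2). With 2 pups the smallest p of an exact sign-flip test is 0.5, so no p-value is given. Intervals and floors cover the error of counting reads alone, because each pup has 1 library. No molecular identifiers mark which reads came from separate molecules, so the error of counting molecules may not be covered.

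Class I molecules are made of a heavy chain and beta-2 microglobulin, and they show peptides from inside the cell to CD8 T cells. The proteasome cuts the peptides, the TAP transporter carries them into the endoplasmic reticulum, and tapasin helps load them there. Class II molecules are alpha and beta chain pairs that pick up peptides in lysosomal compartments, guided by the invariant chain, and in most tissues they are carried by macrophages, dendritic cells and B cells, and in the gut also by epithelium after induction. Nonclassical class I genes are a mixed family, with members that present lipids, vitamin metabolites or formylated peptides or that are read by receptors of intraepithelial lymphocytes and natural killer cells. In the neonatal gut, B2m also pairs with Fcgrt, the receptor that carries maternal antibody across the epithelium.

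The class I heavy chains are close copies of each other, which bears on how far their reads can be told apart, so their sequences are shown first. Coding sequences were rebuilt from GENCODE M21 on GRCm38. The coding sequence of H2-K1 (1107 nt, chromosome 17, minus strand) was 91.5% identical to that of H2-D1 over aligned bases, 85.4% to H2-Q2, 87.8% to H2-Q10, 82.8% to H2-T23 and 75.4% to H2-T3. It was 51.0% identical to Cd1d1 and 54.7% to Mr1, which lie outside the MHC. The window of 60 coding bases most alike across the H2-K1, H2-D1, H2-Q2, H2-Q10 and H2-T23 genes spans H2-K1 coding bases 658 to 717, counted from the start codon. H2-D1, H2-Q2 and H2-T23 are identical to H2-K1 there, and H2-Q10 differs at 1 base, which is in capitals.
H2-K1: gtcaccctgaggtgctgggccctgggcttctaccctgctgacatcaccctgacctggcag
H2-Q10: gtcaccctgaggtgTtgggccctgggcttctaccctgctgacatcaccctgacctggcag

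The window least alike spans H2-K1 coding bases 475 to 534, and capitals again mark bases that differ from H2-K1.
H2-K1: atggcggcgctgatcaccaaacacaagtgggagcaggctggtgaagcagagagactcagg
H2-D1: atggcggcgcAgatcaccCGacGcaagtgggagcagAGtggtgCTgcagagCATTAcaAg
H2-Q2: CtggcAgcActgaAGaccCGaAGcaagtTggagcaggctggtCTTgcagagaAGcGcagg
H2-Q10: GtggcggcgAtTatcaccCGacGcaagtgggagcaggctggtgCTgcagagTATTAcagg
H2-T23: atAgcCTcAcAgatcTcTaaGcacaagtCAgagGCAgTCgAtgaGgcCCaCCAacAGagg

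In this window H2-D1 differed from H2-K1 at 14 bases, H2-Q2 at 16, H2-Q10 at 13 and H2-T23 at 24. The deposited lengths imply fragments of 100 bases, and 14 of the 35 genes share at least 1 run of 100 bases with another annotated gene, while 21 share none. The deposited posterior SD of the count, which measures how uncertain the division of reads was, was 0 in both pups for 17 genes. It was 0.0062% and 0.0067% of the count for H2-K1, and 0.0551% and 0.0613% for H2-D1. Among genes with 100 or more reads in both pups its maximum was 2.35%, for H2-Q6. It was larger for sparse copies, at 2.93% and 3.43% for H2-Q7 and at 8.77% and 13.1% for H2-T10, whose coding sequence is 96.3% identical to that of H2-T22. H2-DMb1 shared 12.9% of its runs with H2-DMb2, and Cd1d1 shared 10.49% with Cd1d2.

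Of the 35 genes, 30 were detected, meaning 1 TPM (the deposited transcript level, normalised to length and library) or more in both pups. The 30 were all among the 34 annotated as protein-coding, against 59.1% of all 21474 protein-coding genes. The genes under 1 TPM were H2-T10, H2-M2, H2-M5, Nlrc5 and Ciita. Of the 35 genes, 5 exceeded 100 TPM in both pups, against 5.78% of protein-coding genes: B2m, H2-K1, H2-Q2, H2-D1 and Psmb10.

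**Figure D1:**
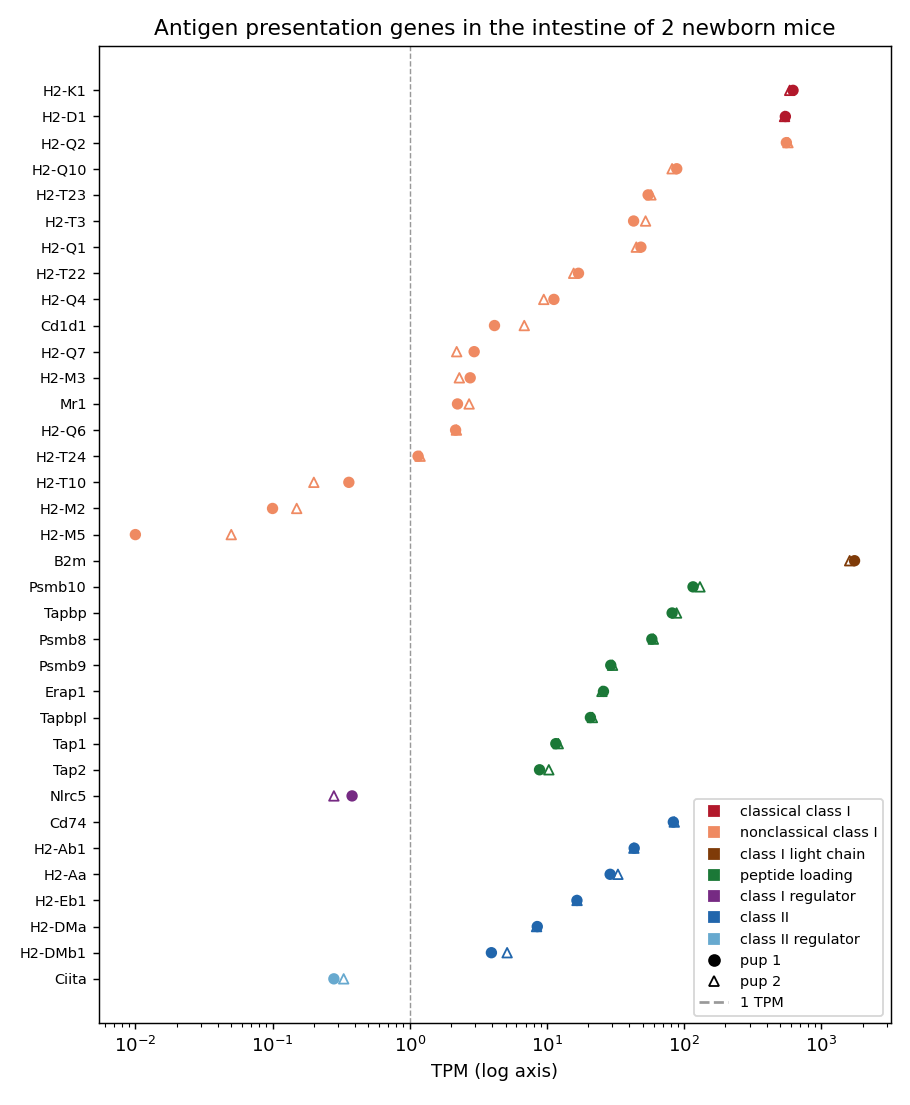
TPM on a log axis for each of the 35 genes, grouped by class, with pup 1 as filled circles and pup 2 as open triangles. The dashed line is 1 TPM, and the 5 genes with a point left of it are H2-T10, H2-M2, H2-M5, Nlrc5 and Ciita.

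Both classical heavy chains were among the 3 most abundant of the 18 heavy chains. H2-K1 (ENSMUSG00000061232.11, chromosome 17, 33996017 to 34000347, minus strand), which presents peptides to CD8 T cells, measured 623 TPM in pup 1 and 589 TPM in pup 2. It ranked at 201 of the protein-coding genes. H2-D1 (ENSMUSG00000073411.7, chromosome 17, 35262730 to 35267499, plus strand), which does the same from a place beyond the class II region, measured 548 and 540.3 TPM and ranked at 228. H2-K1 was higher in both pups and the groups of values did not overlap, with a log2 ratio of 0.16 ± 0.043 (SD, n = 2). The order depended on length: in CPM (counts scaled to library size, without length) the log2 ratio was -0.22.

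Among the 16 nonclassical heavy chains, H2-Q2 led and the others spanned a wide range. H2-Q2 (ENSMUSG00000091705.4, chromosome 17, 35342242 to 35346762, plus strand), a gene of the Qa region, measured 557 and 572 TPM, between H2-D1 and H2-K1 in both pups. That deposited value is a sum over a pair of transcript models. H2-Q2-201, which has the first exons, carried 35.2% and 33.7% of the gene's transcripts. H2-Q2-202, annotated with its start not found, carried 64.8% and 66.3%, shares 231 bases with the other model and has an exon of 919 bases of its own. When the same reads were set over the joined length of 2181 nt, H2-Q2 measured 292 and 299 TPM, so that the deposited value was 1.91 times higher. On that scale it stood below both classical genes.

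H2-Q10 (ENSMUSG00000067235.10, chromosome 17, 35470089 to 35474563, plus strand), known as a soluble heavy chain secreted by the liver, measured 88.4 TPM in pup 1 and 81.8 TPM in pup 2. The liver marker Alb was at 0.79 and 0.86 TPM (55 and 46 reads), while Ttr and Serpina1a of the same marker list were at 335 and 309.8 TPM and at 53.9 and 57.2 TPM. Of the 6 liver markers 3 were detected, and their summed level ranged from 376 to 396 TPM. Cyp2e1 was near 0, with 2 and 3 reads. Their part in the H2-Q10 level was not tested.

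H2-T23 (Qa-1, chromosome 17, 36029773 to 36032855), read by the CD94 and NKG2 receptors of natural killer and T cells, measured 54.7 and 57.3 TPM. H2-T3 (ENSMUSG00000054128.12, chromosome 17, 36185572 to 36190287, minus strand), the thymus leukaemia antigen known from gut epithelium as a ligand of the CD8 alpha homodimer, measured 42.9 and 52.4 TPM. H2-Q1 measured 48.45 and 44.9 TPM. H2-T23 stood above H2-T3 and H2-Q1 in both pups, whereas the deposited values of H2-T3 and H2-Q1 overlapped. Over its joined models H2-Q1 measured 36.8 and 34.0 TPM, below H2-T3 in both pups. Transcripts of the matching lymphocyte receptors were sparse: Cd8a had 10 and 1 reads, Klrd1, which encodes CD94, 22 and 25 reads, and Klrc1, which encodes NKG2A, 4.94 and 12 reads.

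The other nonclassical genes were lower. H2-T22, a ligand of some gamma delta T cell receptors, measured 16.3 ± 0.933 TPM (SD, n = 2), and H2-Q4 11.25 and 9.49 TPM. Cd1d1 (chromosome 3), which shows lipids to natural killer T cells, measured 4.15 and 6.84 TPM, or 2.68 and 3.95 TPM over its joined models. Mr1 (chromosome 1), which shows vitamin metabolites to mucosal-associated invariant T cells, measured 2.23 and 2.71 TPM. H2-M3, which shows formylated bacterial and mitochondrial peptides, measured 2.76 and 2.30 TPM. The Qa-2 genes H2-Q6 and H2-Q7 measured 2.16 and 2.19 TPM and 2.95 and 2.20 TPM, and their ratio was within the spread between pups (log2 0.22 ± 0.30, n = 2). Over its joined models, however, H2-Q7 measured 0.922 and 0.795 TPM, below H2-Q6 and under the detection level. Most of that joined length of 4265 nt comes from an intron-retaining model of 4209 nt. This model took only 27.6 and 26.7 of the 138 and 91.3 reads, so the joined value may be too low. From posterior means H2-Q7 measured 2.97 and 2.32 TPM. H2-T24 lay just above the detection level at 1.15 and 1.19 TPM. H2-T10, annotated as a polymorphic pseudogene, measured 0.36 and 0.20 TPM against the near-identical H2-T22, a log2 difference of 5.47 ± 0.35. H2-M2 had 5 reads in each pup, and H2-M5 had 1 and 3 reads, at or below the 3 counts that a count of 0 allows.

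**Figure D2:**
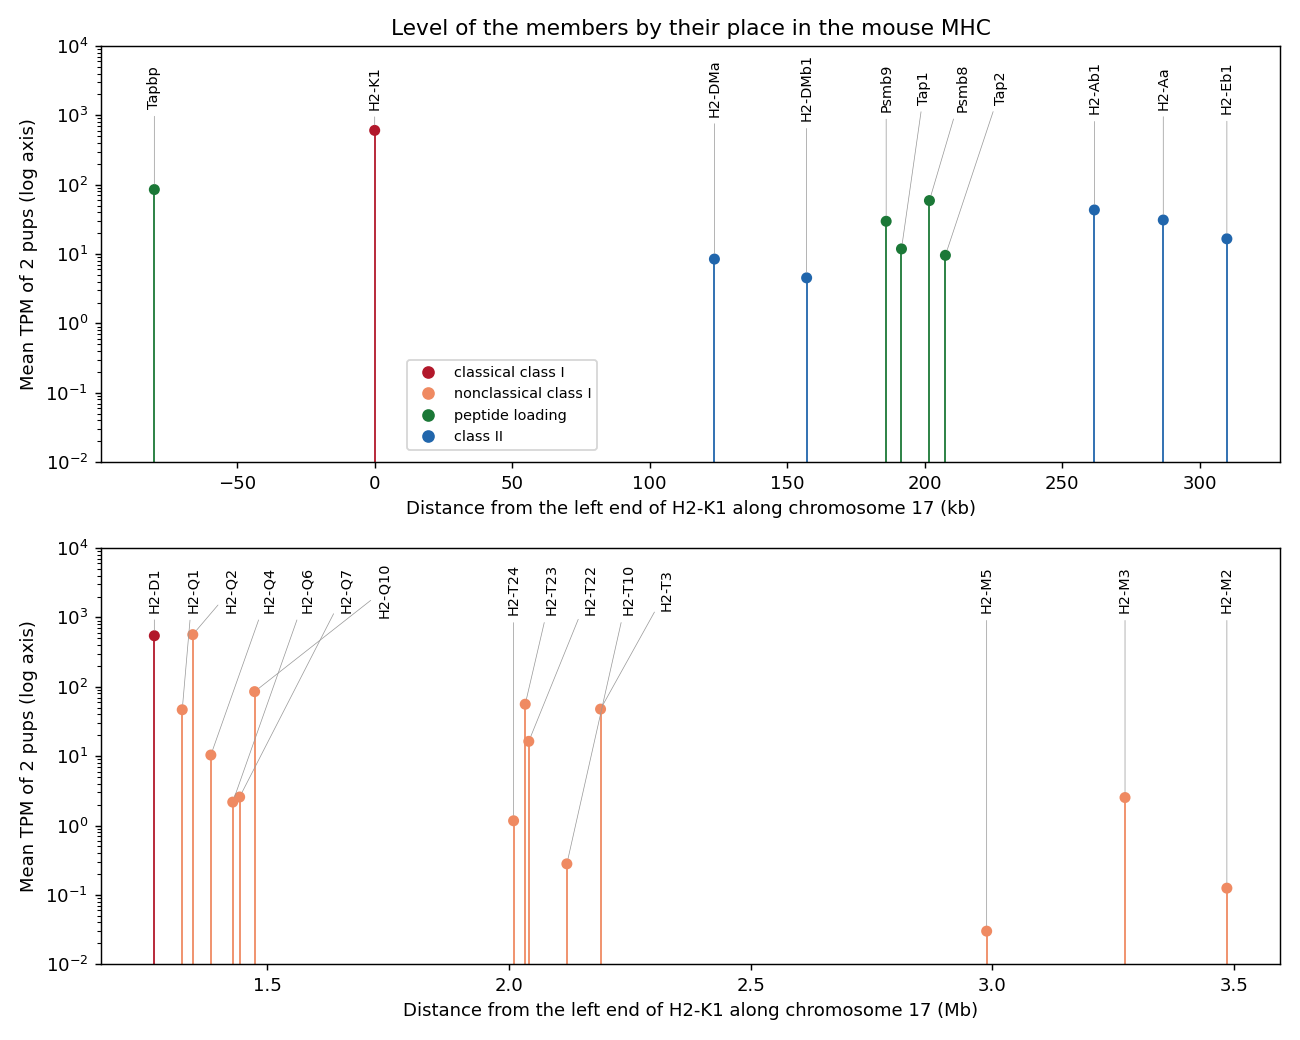
Mean TPM of both pups on a log axis against distance along chromosome 17 from the left end of H2-K1, for the 26 genes there, in kb for the near part (upper panel) and Mb for the far part (lower panel). H2-K1, H2-D1 and H2-Q2 stand highest, and the M region at the far end holds H2-M5, H2-M3 and H2-M2 at 0.030, 2.53 and 0.125 TPM.

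Summed over all 18 heavy chains the level was 2006 TPM in pup 1 and 1981 TPM in pup 2, a mean of 1993 ± 17.9 TPM (SD, n = 2). H2-K1 made up 30.4 ± 0.928% of the sum, H2-Q2 28.3 ± 0.787% and H2-D1 27.3 ± 0.014%. The next were H2-Q10 at 4.27 ± 0.197%, H2-T23 at 2.81 ± 0.119%, H2-T3 at 2.39 ± 0.360% and H2-Q1 at 2.34 ± 0.106%. Over joined models the shares were 35.5 ± 0.934% for H2-K1, 31.9 ± 0.119% for H2-D1 and 17.3 ± 0.536% for H2-Q2, so the order of H2-D1 and H2-Q2 turned. Joining was done for 11 of the 17 genes with several models. The other 6, H2-K1 among them, kept their deposited TPM, because their model lengths differ between annotation versions, and H2-K1 and H2-D1 gain share only from the smaller sum.

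**Figure D3:**
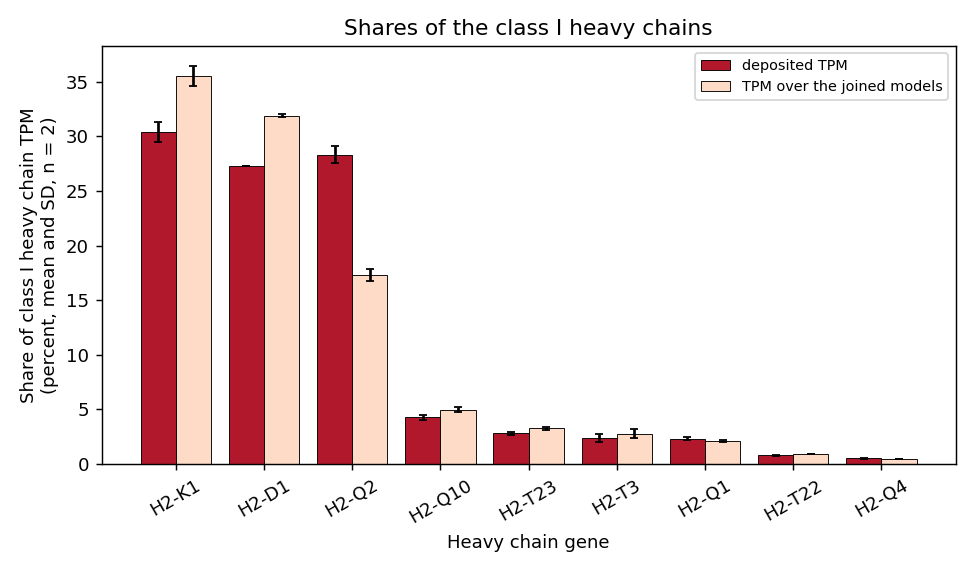
Share of the summed TPM of the 18 class I heavy chains for the 9 genes with the highest shares (mean and SD, n = 2), from deposited TPM (dark) and from TPM over joined transcript models (light). H2-Q2 takes 28.3% on the deposited scale and 17.3% on the joined scale.

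B2m (ENSMUSG00000060802.8, chromosome 2, 122147686 to 122153083, plus strand), the light chain of class I, measured 1749 TPM in pup 1 and 1612 TPM in pup 2 and ranked at 46 of the protein-coding genes. The summed heavy chains were 1.15 and 1.23 times B2m, a mean of 1.19 ± 0.058, but over joined models they were 0.984 and 1.05 times B2m, on either side of it. Fcgrt, which uses the same light chain and was at 2502 and 2227 TPM, stood above B2m in both pups (log2 of B2m over Fcgrt -0.49 ± 0.035). With Fcgrt added, heavy chains were 2.59 ± 0.024 times B2m (2.42 ± 0.011 over joined models). Transcripts for all these partners of B2m outnumbered those for B2m in both pups, on a scale of transcripts and not of protein. Of 19 other class I and class I-like genes, 5 were detected and 7 had no read. After Fcgrt these were led by Hfe, the iron regulator, at 11.2 and 12.5 TPM, H2-Bl at 7.33 and 9.00 TPM and Procr, the endothelial protein C receptor, at 6.67 and 6.38 TPM.

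The 250 bases before the RefSeq start (GRCm38.p6) are shown for members whose windows carry, or lack, the letters of known class I and class II control elements. Windows were taken for 25 of the 35 genes. H2-T10, Nlrc5, H2-T24, Tap2, Tapbpl, Cd74, Cd1d1, H2-Q1, H2-Ab1 and Ciita had none. The windows of H2-D1, H2-DMa, Psmb8, Psmb9, Erap1 and Tapbp lie wholly within the span of their GENCODE genes. The letters searched on both strands were GGGGA followed at once by TTCCC (the kappa B element of class I enhancers) and CCAAT (the Y box). Also searched were GAAA, any 2 bases and GAAA (a form of the interferon-stimulated response element) and TGACGC (a form of the X2 box). None of the matches in the sequences printed overlaps another. All matched letters are in capitals.
H2-K1, chr17:34000348-34000597, minus strand: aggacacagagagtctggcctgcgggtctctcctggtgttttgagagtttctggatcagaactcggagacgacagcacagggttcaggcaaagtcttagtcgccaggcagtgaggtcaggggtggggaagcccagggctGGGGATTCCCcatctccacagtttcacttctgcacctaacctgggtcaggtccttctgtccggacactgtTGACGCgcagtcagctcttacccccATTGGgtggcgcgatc
H2-Q10, chr17:35469839-35470088, plus strand: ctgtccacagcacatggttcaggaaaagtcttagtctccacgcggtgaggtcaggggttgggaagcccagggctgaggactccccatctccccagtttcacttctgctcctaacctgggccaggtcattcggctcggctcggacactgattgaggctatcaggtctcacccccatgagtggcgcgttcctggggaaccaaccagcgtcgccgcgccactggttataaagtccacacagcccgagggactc
H2-Aa, chr17:34287824-34288073, minus strand: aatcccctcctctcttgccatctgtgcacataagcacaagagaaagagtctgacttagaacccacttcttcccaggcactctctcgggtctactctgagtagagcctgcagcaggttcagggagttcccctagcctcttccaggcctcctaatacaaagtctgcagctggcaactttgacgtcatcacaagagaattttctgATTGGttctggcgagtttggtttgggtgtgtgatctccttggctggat

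In the H2-K1 window the kappa B letters begin 111 bases before the start, the X2 letters 41 bases and the Y letters, on the other strand, 16 bases. Of the 4 sets of letters searched, the H2-Q10 window holds none, and the H2-Aa window holds the Y letters alone, 48 bases before the start. The kappa B letters were found in 4 of the 25 windows, H2-K1, H2-D1, H2-Q6 and H2-Q7, and in 28 of all 32851 windows (0.0852%). They are shown with 10 bases on each side, to compare the 2 highest classical genes with the low Qa-2 pair.
H2-K1, chr17:34000439-34000468, minus strand: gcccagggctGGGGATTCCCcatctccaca
H2-D1, chr17:35262913-35262942, plus strand: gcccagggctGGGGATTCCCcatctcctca
H2-Q6, chr17:35424667-35424696, plus strand: gcccatggctGGGGATTCCCcatctcccca
H2-Q7, chr17:35439012-35439041, plus strand: gcccatggctGGGGATTCCCatctccccag

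H2-D1 has its RefSeq start 364 bases inside its GENCODE model, so this stretch lies within the first exon of that model. The 4 genes span 605.9 to 2.17 TPM in mean level, so genes with these letters lay at very different levels. The interferon-response letters were found in 3 of the 25 windows, B2m, H2-T22 and H2-T23, against 2.98% of all windows.
B2m, chr2:122147538-122147567, plus strand: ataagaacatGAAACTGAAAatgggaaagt
H2-T22, chr17:36042914-36042943, minus strand: attggcttagTTTCACTTTCgaatccccaa
H2-T23, chr17:36032806-36032835, minus strand: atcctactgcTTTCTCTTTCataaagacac

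The H2-T23 stretch also lies within the first exon of its GENCODE model, whose start is 154 bases before the RefSeq start.

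The X2 letters were found in 3 windows, H2-K1, H2-D1 and H2-M3, against 6.12% of all, and the Y letters in 17 of 25, against 33.8% of all. A match is a description of letters and not of binding, and its absence says only that these letters are not in the window. Other forms of the elements were not searched. Among the full windows printed, that of H2-Aa holds tgacgtca, and those of H2-K1 and H2-Q10 hold tttcacttct. The letters searched cover neither stretch.

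All 8 peptide loading genes were detected, at levels far under those of the classical heavy chains. Tapbp (chromosome 17, 33915899 to 33929292), which encodes tapasin, measured 81.85 TPM in pup 1 and 88.2 TPM in pup 2. Its relative Tapbpl (chromosome 6), which edits peptides outside the loading complex, measured 20.8 and 21.5 TPM. Tapbp was 4.01-fold higher (log2 2.00 ± 0.042, n = 2), with no overlap. Tap1 and Tap2, the chains of the peptide transporter, measured 11.6 and 12.1 TPM and 8.84 and 10.33 TPM. Tap1 exceeded Tap2 by 0.31 ± 0.12 on the log2 scale, and by 0.64 ± 0.029 over joined models. Erap1 (chromosome 13), the aminopeptidase that trims peptides in the endoplasmic reticulum, measured 25.85 and 25.2 TPM. Tap1 and Psmb9 are neighbours transcribed in opposite directions, with RefSeq starts 226 bases apart, and Psmb9 was the higher in both pups.

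The immune subunits of the proteasome are exchanged for constitutive ones when a cell makes the immunoproteasome, and the 3 pairs differed in their balance. Psmb8 measured 58.2 and 59.7 TPM against 224 and 201 TPM for its constitutive counterpart Psmb5, so Psmb5 was 3.60-fold higher (log2 of Psmb8 over Psmb5 -1.85 ± 0.14, n = 2). Psmb9 measured 29.2 and 30.1 TPM against 393 and 371 TPM for Psmb6, which was 12.8-fold higher (log2 -3.68 ± 0.089). Psmb10 (chromosome 8, 105935735 to 105938444) measured 116 and 131 TPM against 124 and 114 TPM for Psmb7. The constitutive form was higher for the first pairs in both pups, and for Psmb10 and Psmb7 the pups disagreed on the order, with a log2 ratio of 0.052 ± 0.20 that lay within their spread (0.26 ± 0.22 in CPM). All 14 constitutive core subunits were detected (median 271 ± 5.44 TPM). The activator subunits Psme2 and Psme1, which open the proteasome gate, were at 410.5 and 438 TPM and at 228 and 231 TPM, against 47.3 and 46.9 TPM for Psme3 of the nuclear activator.

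**Figure D4:**
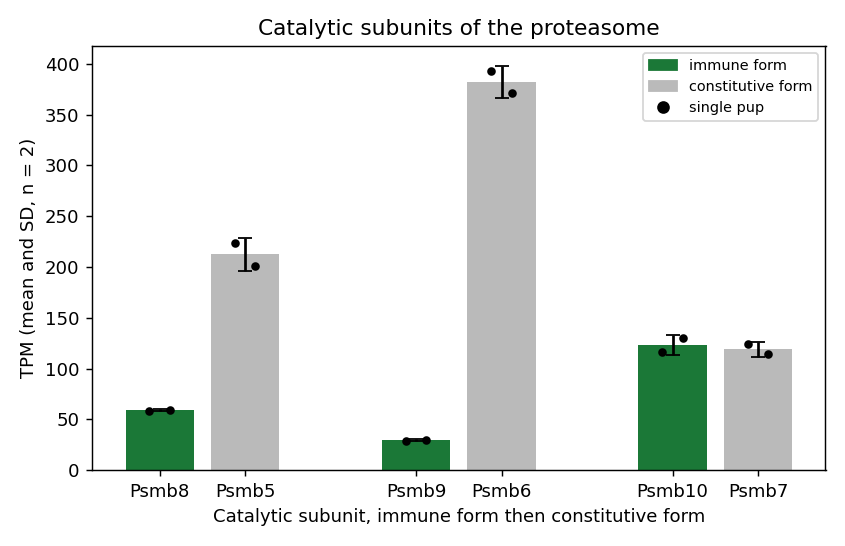
TPM of the 3 immune catalytic proteasome subunits (green) and their constitutive counterparts (grey), bars as means with SD (n = 2) and points as single pups. Psmb5 and Psmb6 stand 3.60-fold and 12.8-fold above Psmb8 and Psmb9, while Psmb10 and Psmb7 overlap.

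The chaperones that fold and assemble class I were all detected, 5 of 5, with Calr at 406 and 380.04 TPM, Hspa5 at 365 and 363 TPM, Pdia3 at 279.7 and 257 TPM and Canx at 146 and 151 TPM. These genes serve all glycoproteins of the secretory pathway and not class I alone.

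All 6 class II genes were detected, all below 100 TPM. H2-Ab1 (ENSMUSG00000073421.5, chromosome 17, 34257689 to 34269419, plus strand), the beta chain of I-A, measured 43.3 TPM in pup 1 and 43.1 TPM in pup 2. H2-Aa (ENSMUSG00000036594.10, chromosome 17, 34282744 to 34287823, minus strand), its alpha chain, measured 28.9 and 32.95 TPM, lower than H2-Ab1 in both pups (log2 -0.48 ± 0.14, n = 2). H2-Eb1, the beta chain of I-E, measured 16.56 and 16.59 TPM, and H2-Ab1 was 2.60-fold higher (log2 1.38 ± 0.0073). In mice of the H2-b haplotype, to which the B6 strains belong, the I-E alpha gene is defective and H2-Eb1 lacks a partner. The gene annotated as H2-Ea-ps had no read in either pup, where a count of 0 allows up to 3 counts, 0.0673 and 0.0862 CPM.

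Cd74, the invariant chain that fills the class II groove until the lysosome, measured 83.5 and 84.85 TPM, 2.72-fold above H2-Aa (log2 1.44 ± 0.12). H2-DMa and H2-DMb1, the chains of the editor that exchanges invariant-chain fragments for peptides, measured 8.51 and 8.41 TPM and 3.94 and 5.13 TPM. Their log2 ratio was 0.90 ± 0.28, or 0.56 ± 0.35 in CPM. Of 5 other class II genes none was detected: H2-DMb2 measured 0.85 and 1.01 TPM, H2-Oa had 7 and 20 reads, H2-Ob 11 and 5, and H2-Eb2 none. All 4 genes of lysosomal class II processing were detected, Lgmn at 1078 and 1145 TPM, Ctsl at 851 and 767 TPM, Ifi30 at 198 and 213 TPM and Ctss at 162 and 157 TPM. These enzymes also work in lysosomes of cells that carry no class II.

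Several cell types could carry the class II genes, and in bulk tissue fewer cells of a type and less RNA per cell cannot be told apart. All 11 macrophage markers were detected, their summed level being 291 and 285 TPM, led by Csf1r at 82.3 and 78.1 TPM and C1qb at 57.3 and 54.3 TPM. Of 10 dendritic cell markers 4 were detected, summing to 10.8 and 11.6 TPM, with Batf3 highest at 5.50 and 5.82 TPM and Xcr1 at 6 and 5 reads. Of 7 B cell markers 1 was detected, summing to 1.82 and 1.94 TPM, with Pax5 at 0 reads. Of 12 T and natural killer cell markers 2 were detected, Trac at 17.1 and 18.6 TPM and Lck at 2.46 and 2.47 TPM. Their part in the class II levels was not tested. Among costimulatory genes 2 of 5 were detected, Icam1 at 8.06 and 9.12 TPM and Cd40 at 2.84 and 3.66 TPM, while Cd86 was at 1.23 and 0.93 TPM.

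The 2 regulators were both under 1 TPM. Nlrc5 (chromosome 8, 94434356 to 94527272), the transactivator of class I genes, had 41 and 33 reads (0.38 and 0.28 TPM). Ciita (chromosome 16, 10480059 to 10528418), the transactivator of class II genes, had 52 and 47 reads (0.28 and 0.33 TPM). Their ratio changed direction between the pups and lay within the spread (log2 0.079 ± 0.36, n = 2). It exceeded the spread under other settings and in either direction, at -0.62 ± 0.095 over joined models and 0.62 ± 0.27 from posterior means. All 7 genes of the RFX, NF-Y and CREB factors to which both bind were detected, with Nfyc highest at 39.9 and 38.2 TPM and a median of 6.48 ± 0.311 TPM.

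Interferon genes, which induce class I and the immunoproteasome, were read little: none of 7 ligands was detected, 4 had no read in either pup, and Ifng had 1 and 0 reads. All 18 receptor and signalling genes were detected, with Ifngr2 at 107 and 113 TPM, Irf7 at 101 and 97.7 TPM, Il10rb, shared by interferon lambda and interleukin receptors, at 98.2 and 99.2 TPM and Ifngr1 at 73.5 and 72.4 TPM. Of 20 interferon response genes 17 were detected (median 13.1 ± 2.21 TPM), with Bst2 at 70.4 and 75.8 TPM and Ifit1 at 72.8 and 69.8 TPM, while the chemokine Cxcl9 had 4 and 4 reads.

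Set side by side, the class medians of log2(TPM + 0.1) within a pup were compared in 6 contrasts. Each differed by more than the spread between pups, which does not measure how genes vary within a class. Mean levels ran from 544 to 606 TPM for the 2 classical genes and from 0.030 to 564 TPM for nonclassical class I. They ran from 9.585 to 123 TPM for peptide loading and from 4.535 to 84.2 TPM for class II. Classical class I stood 7.17 ± 0.24 above nonclassical class I (144-fold, n = 2), 4.38 ± 0.038 above peptide loading (20.8-fold) and 4.66 ± 0.10 above class II (25.3-fold). Nonclassical class I stood at -2.79 ± 0.21 against peptide loading and at -2.51 ± 0.14 against class II. Peptide loading and class II lay closest, 0.28 ± 0.065 apart (1.22-fold), and this distance was 0.65 with means over members and 1.20 in CPM without length. The nonclassical sum was 843 ± 11.2 TPM, or 279 ± 0.587 TPM without H2-Q2, against 365 ± 17.7 TPM for peptide loading and 188 ± 4.42 TPM for class II, and 1150 ± 29.1 TPM for the classical pair. With members under 1 TPM left out, classical exceeded nonclassical class I by 5.78. Over joined models, which were chosen as a scale after the data had been seen, the nonclassical sum was 555 ± 6.55 TPM. The class I heavy chains summed to 21.99 ± 0.854 times the class II alpha and beta chains, which held 88.8 and 92.6 TPM.

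Several of the genes were carried by more than 1 transcript model, 17 with several models at 5% or more of the gene in both pups and 17 with 1. Cd74-201 carried 79.3% and 80.7% of the Cd74 transcripts. Cd74-202, which has 1 more exon of 192 bases, carried 20.7% and 19.3%. A longer invariant chain with an extra exon is known to inhibit lysosomal proteases, and the share of this model was alike in the pups. H2-K1-201 carried 66.9% and 66.1% and H2-K1-205 29.7% and 31.1%. The pair differs by 85 and 36 bases of exon and by no whole exon.

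Among the loading genes, Tap2 was the detected gene whose leading model retains an intron in both pups: Tap2-202 carried 80.2% and 82.7%, and the coding model Tap2-201 18.8% and 12.7%. For Tapbp the coding model Tapbp-201 carried 86.8% and 87.1% and an intron-retaining one 12.3% and 12.2%. H2-DMa was split between the coding model H2-DMa-201 (57.7% and 48.9%) and an intron-retaining one (42.3% and 51.1%), so the leading model changed between pups. Psmb8-203 and Psmb8-201, both coding, carried 57.5% and 51.0% and 42.6% and 48.5%. Mr1 changed its leading model, from Mr1-204, marked for nonsense-mediated decay, at 65.9% in pup 1 to the coding Mr1-201 at 58.8% in pup 2, on 215 and 192 reads. These shares rest on how reads common to models were divided and have no test.

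The genes were also compared between the littermates. The ratio of normalised counts, pup 2 over pup 1, could be tested for 34 genes, H2-M5 having too few reads. None had a 95% exact (Clopper-Pearson) interval wholly over 2-fold in either direction, against 0.796% of 19088 genes. None had 1 wholly over 1.5-fold, against 1.48%. At such shares, a count of 0 among 34 genes does not show that these genes were closer than others. The interval left out 1 for 14 genes, 5 higher and 9 lower in pup 2, against 29.6% of all genes tested. The median log2 ratio was -0.054 over the 34 genes and -0.0061 over all genes, and the median absolute log2 ratio 0.15 and 0.13. Among the 27 genes with 100 or more reads in both pups, ratios ran from 0.849 (H2-Q4) to 1.41 (Cd1d1).

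Cd1d1 had 233 and 264 reads, a ratio of 1.41 with an interval of 1.18 to 1.69. H2-T3 had 3364 and 3154 reads, a ratio of 1.17 (1.11 to 1.23), and B2m 47868 and 33798 reads, a ratio of 0.881 (0.868 to 0.893). H2-K1 and H2-D1 lay on the side of B2m, at 0.907 (0.892 to 0.923) and 0.938 (0.924 to 0.953). With 1 library per pup, such an interval covers the counting of reads and not how pups of a litter vary.

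**Figure D5:**
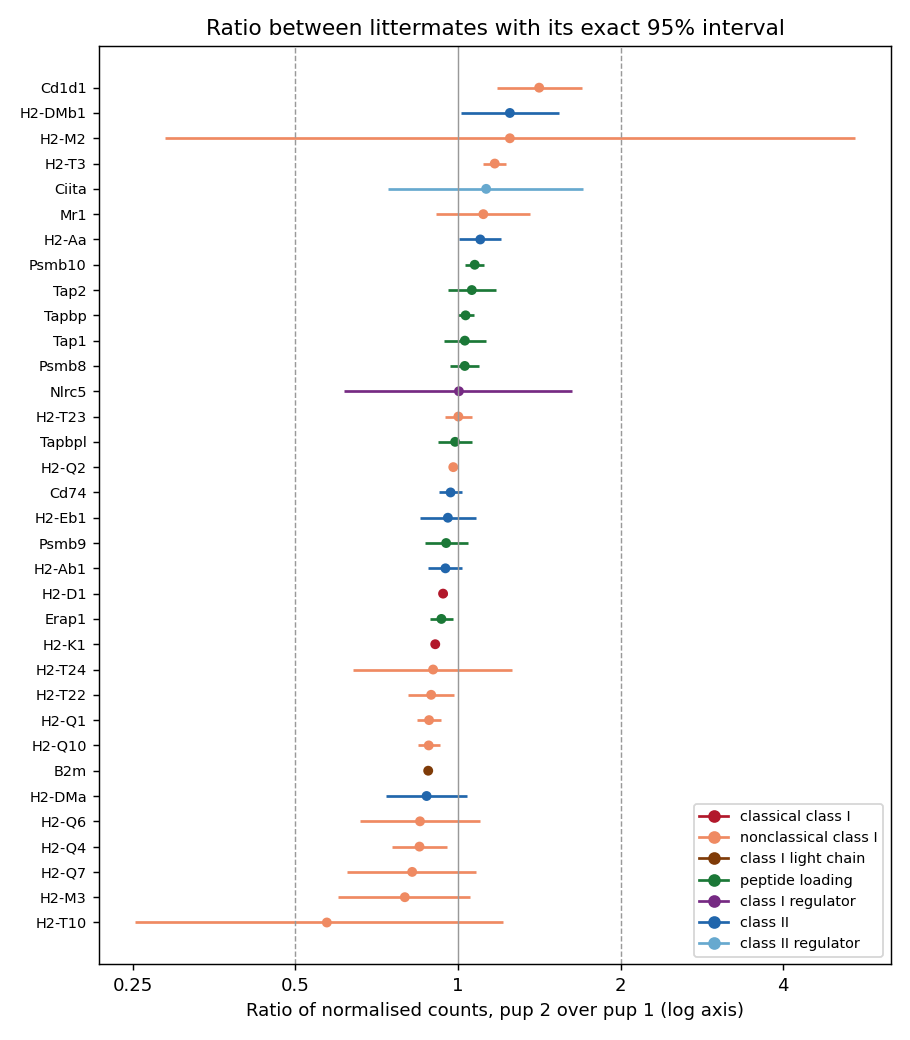
Ratio of normalised counts, pup 2 over pup 1, on a log axis for the 34 genes tested, with exact 95% intervals as bars and dashed lines at 2-fold in both directions. No interval lies wholly beyond a dashed line, and the widest belong to H2-M2 and H2-T10, which had 5 reads in each pup and 24.3 and 11.2 reads.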

How the data were processed

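Expected counts per gene and transcript, estimated by the authors with shared reads divided between features, were deposited for each library, per the file headers. TPM was deposited too, which the authors normalised to effective length and library, per the file headers. Transcript shares in percent and posterior SDs of counts (in reads) were deposited as well. Per the deposited text file the assembly was mm10 with GENCODE M4. Aligner, quantifier and strandedness: not given in the sources used here. GENCODE M21, on the same assembly (GRCm38), supplied names and positions for 42462 of 43346 Ensembl genes.

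Classes were compared by medians of log2(TPM + 0.1), and pairs by log2 ratios of TPM + 0.1, per pup. Ratios between pups used rounded expected counts and TMM library sizes (edgeR 4.0.16, R 4.3.3), with exact intervals (SciPy 1.17.1) at a summed count of 10 or more, tested on simulated data. Alternatives were other pseudocounts, thresholds, scalings (DESeq2 1.42.0 among them), posterior means, CPM without length, each pup alone and joined transcript models. Coding sequences were aligned with Biopython 1.88. Tables used Python 3.11.15, pandas 2.3.3 and numpy 2.4.6, and plots matplotlib 3.10.9.

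The members and gene lists were chosen with earlier results of these data known. Named are all 35 members, the 4 highest genes and up to 2 under 0.1 TPM of each other list, and all genes of the pairs. Klrc1 was added after its values were seen. A few list genes within the rule are not reported here. Of the list symbols, 8 matched no gene. The depth of 44568098 and 34797495 counts puts the 3-count floor at 0.0673 and 0.0862 CPM.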

Additional observations from a re-analysis of the deposited data

How the results depend on the processing

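No paired analysis was possible because both libraries belong to 1 group. The count of detected genes was 30 under each alternative run except a threshold of 2 TPM and the joined models (29 each, H2-Q7 being lost over the joined models), the count over 2-fold apart was 0 under total counts, DESeq2 size factors, no minimum count and a 1.5-fold limit, and all 6 class contrasts had the same sign under each. With each pup alone, classical minus nonclassical class I ranged from 6.997 to 7.34, classical minus loading from 4.35 to 4.404, classical minus class II from 4.59 to 4.73, nonclassical minus loading from -2.94 to -2.65, nonclassical minus class II from -2.61 to -2.41 and loading minus class II from 0.24 to 0.33. Each pup alone cannot give genes over 2-fold apart.

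Contrasts moved by more than the spread between pups as follows. Classical minus nonclassical was 6.87 at a pseudocount of 1 TPM, 5.78 over members at 1 TPM or more, 6.57 with means over members and 7.60 with joined models. Classical minus loading was 4.33 at a pseudocount of 1 TPM, 4.16 with means and 4.13 in CPM without length, and classical minus class II 4.81 with means and 5.33 in CPM. Nonclassical minus loading was -2.53 at a pseudocount of 1 TPM, -1.40 over members at 1 TPM or more, -2.42 with means and -3.22 with joined models. Nonclassical minus class II was -2.26, -1.12, -1.77 and -2.94 under the same alternatives and -1.73 in CPM. Loading minus class II was 0.65 with means and 1.20 in CPM. The heavy chain sum was 1962 TPM from posterior means and 1705 TPM with joined models, and the nonclassical sum 831 and 555 TPM. H2-K1 over H2-D1 turned to -0.22 in CPM, which drops length by construction, and 11 of the other 14 pairs moved there. Of those, Nlrc5 over Ciita (-0.39) and H2-Q7 over H2-Q6 (-0.18) took the other sign from values within the spread. The joined models were added after the data had been seen; the cause of other shifts was not tested.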

Other observations

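Blood vessel genes of the newborn intestine were all detected, 7 of 7, with a summed level of 202 and 212 TPM in pups 1 and 2. Plvap, of the diaphragms of fenestrated capillaries, led at 86.8 and 88.2 TPM, followed by Egfl7 at 43.7 and 52.5 TPM. The epithelial list was led by the galectin Lgals4 at 1893 and 1962 TPM and the tight junction gene Cldn7 at 1112 and 1035 TPM, above B2m in both pups for Lgals4.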
